A study of Mus musculus with 18 samples.

Results

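The 10 genes described here are 2 glucose transporters (Slc2a1 and Slc2a3) and 8 enzymes in pathway order (Hk2, Pfkp, Aldoa, Gapdh, Pgk1, Eno1, Pkm and Ldha). They were chosen by gene identity, as 10 of the 51826 Ensembl IDs in each count file, and not by a measured value. Earlier results of these data were known when the genes were chosen. Their symbols were assigned to the IDs in choosing them, since the files hold IDs alone. All 10 were found in every file, and all 10 were among the 13701 genes tested. Glucose enters a cell through facilitative transporters of the plasma membrane and is then broken down to pyruvate by the enzymes of glycolysis, and lactate dehydrogenase turns pyruvate into lactate. Mouse embryonic stem cells are known for a high rate of glycolysis, and the pathway is remodelled as they leave the pluripotent state.

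The assay was ribosome profiling, in which nuclease leaves only the stretch of mRNA covered by each ribosome (a footprint), and the footprints of each gene are counted. The cells were of E14, a line of mouse embryonic stem cells. The groups were Quaking KO, Sam68 KO and unedited (WT) cells of that E14 background, each sampled on day 10 of differentiation as embryoid bodies, the aggregates in which stem cells form early embryonic cell types, and on day 0. Quaking and Sam68 are related proteins that bind RNA and regulate its splicing and use. Each of the 6 groups had 3 libraries, giving 18. The series calls them biological triplicates, but the labels name no separate cultures or clones, so p-values measure the spread between these libraries. More mRNA and more frequent translation of each mRNA both raise a footprint count, and no mRNA measurement was used here to tell them apart. Embryoid bodies are mixtures, so fewer cells that express a gene and less of its RNA per cell cannot be told apart.

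Levels are given in CPM, counts brought to a common library size by TMM scaling, and fold changes come from edgeR's quasi-likelihood test with Benjamini-Hochberg adjustment over all 13701 genes, called at an adjusted p below 0.05. Library totals ran between 988210 and 10646768 counts. In 3 day 10 libraries the 10 largest features held over 40% of the counts (WT replicate 3, Sam68 KO replicates 2 and 3), while in the remaining day 10 libraries this share was 30.2% or less. Counts of called genes between lines, and medians between days, are also given with all 3 left out of the fit, together with the calls that then change. Sam68 KO at day 10 is then replicate 1 alone, which is assumed to vary like the libraries of the other groups. Sequencing pool 1 held Quaking KO and WT at day 0, pool 2 held WT at day 10 and Sam68 KO at day 0, and pool 3 held both knockouts at day 10. Only Sam68 KO against Quaking KO at day 10 and Quaking KO against WT at day 0 lie within a pool; elsewhere pool and group cannot be told apart. The genes encoding Quaking and Sam68, and markers of pluripotent and differentiated cells, were not examined because no table used here pairs Ensembl IDs with symbols, so genotype and cell type rest on the labels. No gene lengths were used, so levels are compared between libraries and not between genes.

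By RefSeq's GRCm38.p6 annotation, Slc2a1 (ENSMUSG00000028645.11) lies at chr4:119108745-119137330 and Slc2a3 (ENSMUSG00000003153.10) at chr6:122727809-122802363. Hk2 (ENSMUSG00000000628.10) lies at chr6:82725025-82774454 and Pfkp (ENSMUSG00000021196.14) at chr13:6579874-6649060. Aldoa (ENSMUSG00000030695.14) lies at chr7:126795234-126800994, Gapdh (ENSMUSG00000057666.18) at chr6:125161852-125166467 and Pgk1 (ENSMUSG00000062070.12) at chrX:106187100-106203699. Eno1 (ENSMUSG00000063524.13) lies at chr4:150236708-150248879, Pkm (ENSMUSG00000032294.17) at chr9:59656576-59679372 and Ldha (ENSMUSG00000063229.15) at chr7:46842274-46855627. The same annotation names 5 further genes or pseudogenes after Aldoa and 3 each after Gapdh, Pgk1 and Ldha. How reads that fit several copies were counted is not given in the sources used here, so the counts of these 4 genes are uncertain to that extent. Only names or synonyms made of the gene's symbol with a pseudogene or related-sequence suffix were searched. Copies under other names, of these 4 or of the remaining genes, would be missed, so the remaining genes may be uncertain in the same way.

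Glycolytic genes are known targets of the hypoxia-inducible factors, which bind a short core sequence, ACGTG or GCGTG. RefSeq's table held promoter windows, 250 bases before to 50 after the start, for 9 of the 10 genes (15 windows, since some have several starts) and none for Slc2a3. Read on both strands, the core was found in at least 1 window of 9 of 9 genes and in 13 of the 15 windows, against 43.8% of all 32851 windows in the table. Some windows of Aldoa and of Eno1 overlap and share their matches. Shares over all windows are per window, and no share per gene was computed to set beside the 9 genes. The GC box GGGCGG was found in 10 of the 15 windows, of 8 genes, against 35.7% of all windows. The E-box CACGTG, which overlaps the core and is bound by factors such as Myc, was found in 1 window, of Ldha, against 7.15% of all windows. A match is a run of letters and does not show that a factor binds there. The windows of the transporter Slc2a1, of Hk2 and Pfkp, which had the most similar footprint profiles among the 5 genes that fell in every line, and of Ldha, the gene with an E-box, are shown 5′ to 3′ on the gene's strand, with each core on either strand in capitals.
Slc2a1, chr4:119108495-119108794, plus strand: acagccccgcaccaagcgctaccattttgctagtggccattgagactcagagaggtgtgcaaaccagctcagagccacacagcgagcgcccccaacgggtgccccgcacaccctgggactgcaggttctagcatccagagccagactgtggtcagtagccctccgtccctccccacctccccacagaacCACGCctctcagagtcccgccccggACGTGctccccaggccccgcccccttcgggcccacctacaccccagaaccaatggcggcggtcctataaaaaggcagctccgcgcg
Hk2, chr6:82774405-82774704, minus strand: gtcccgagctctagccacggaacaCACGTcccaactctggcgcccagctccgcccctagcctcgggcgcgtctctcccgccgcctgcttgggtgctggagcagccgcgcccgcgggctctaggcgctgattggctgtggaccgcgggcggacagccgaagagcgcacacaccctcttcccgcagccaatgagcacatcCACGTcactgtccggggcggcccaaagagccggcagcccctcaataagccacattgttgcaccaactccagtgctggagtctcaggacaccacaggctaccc
Pfkp, chr13:6648722-6649021, minus strand: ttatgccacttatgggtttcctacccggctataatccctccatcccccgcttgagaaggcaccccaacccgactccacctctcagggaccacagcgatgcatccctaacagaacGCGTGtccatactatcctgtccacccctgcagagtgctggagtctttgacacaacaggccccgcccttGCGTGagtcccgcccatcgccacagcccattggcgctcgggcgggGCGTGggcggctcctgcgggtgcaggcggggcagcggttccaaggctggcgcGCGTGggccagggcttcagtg
Ldha, chr7:46845554-46845853, plus strand: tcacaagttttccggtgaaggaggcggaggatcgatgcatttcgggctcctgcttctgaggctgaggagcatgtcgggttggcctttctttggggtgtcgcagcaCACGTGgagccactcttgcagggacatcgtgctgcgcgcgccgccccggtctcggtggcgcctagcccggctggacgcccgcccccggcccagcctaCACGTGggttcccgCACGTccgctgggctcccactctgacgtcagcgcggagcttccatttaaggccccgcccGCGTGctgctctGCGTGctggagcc

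Among the genes called between the lines at day 10, the transporters differed most. Slc2a3 encodes GLUT3, a high-affinity glucose transporter known from neurons and the early embryo. At day 10, Slc2a3 footprints were at 588, 673 and 667 CPM in Quaking KO, against 4406, 3319 and 3133 CPM in Sam68 KO and 3713, 3585 and 3057 CPM in WT embryoid bodies. At day 0 they were at 1094, 1311 and 1147 CPM in Quaking KO, 1696, 1563 and 1322 CPM in Sam68 KO and 1659.9, 1476 and 1540.0 CPM in WT cells. The day 10 libraries of Quaking KO were therefore below every day 0 library, while those of Sam68 KO and WT were above every day 0 library. Over time Slc2a3 rose in WT (2.22-fold at day 10 over day 0, log2 1.15 ± 0.13 SE, adjusted p = 5.81e-08, edgeR) and in Sam68 KO (2.37-fold, log2 1.25 ± 0.13, adjusted p = 1.49e-08). It fell in Quaking KO, to 0.543 of the day 0 level (log2 -0.88 ± 0.13, adjusted p = 3.39e-06). The difference between the day effects of Quaking KO and WT was -2.03 on the log2 scale (95% interval -2.42 to -1.64, adjusted p = 1.84e-07 by edgeR's interaction test), and it was past the threshold in 20 of 20 alternative settings.

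Slc2a1 encodes GLUT1, the widely expressed transporter that supplies basal glucose uptake. At day 10, Slc2a1 had 402, 475 and 509 CPM in Quaking KO, against 1896, 1347 and 1208 CPM in Sam68 KO and 1620.2, 1468 and 1067 CPM in WT. At day 0, Slc2a1 had 1014, 879.7 and 1070.0 CPM in Quaking KO, 1319, 1415 and 1332 CPM in Sam68 KO and 1175, 1131 and 1218 CPM in WT. The Quaking KO day 10 libraries were the lowest 3 of all 18, whereas the day 10 and day 0 libraries of Sam68 KO and of WT overlapped. In Sam68 KO and WT at day 10 the lower values were those of the libraries in which a few features held over 40% of counts. Slc2a1 fell in Quaking KO (log2 -1.10 ± 0.16 SE at day 10 over day 0, adjusted p = 1.43e-06, edgeR). The values in Sam68 KO (log2 0.13, adjusted p = 0.464) and WT (log2 0.24, adjusted p = 0.175) did not pass edgeR's threshold. Without the 3 libraries they did, at 0.50 in Sam68 KO (edgeR adjusted p = 0.00609), where only replicate 1, the highest of its group, is left at day 10, and 0.38 in WT (adjusted p = 0.00798). The interaction of Quaking KO with day was -1.34 (95% interval -1.79 to -0.88, edgeR adjusted p = 0.000224).

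**Figure D1:**
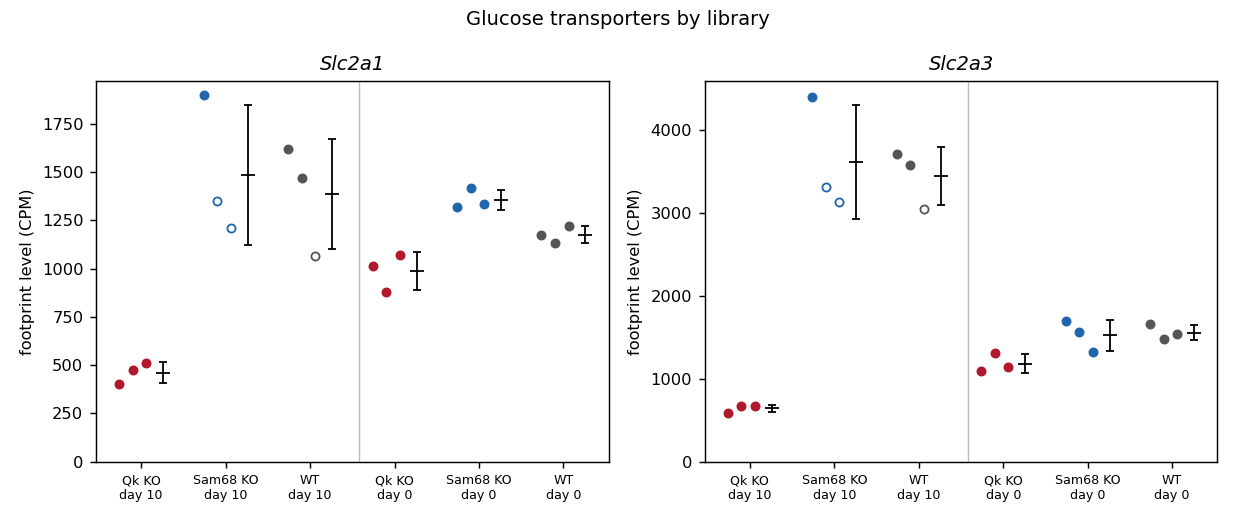
Footprint level in CPM (linear axis starting at 0) of Slc2a1 and Slc2a3 in each of the 18 libraries, by line at day 10 and then at day 0. Each point is 1 library, open points are the 3 libraries in which a few features held over 40% of counts, and the black bar is the mean ± SD of 3 libraries. Slc2a3 lies between 3057 and 4406 CPM in Sam68 KO and WT at day 10 and between 588 and 673 CPM in Quaking KO at day 10.

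Among the enzymes of the upper part of the pathway, Hk2 and Pfkp fell with differentiation in every line, and Aldoa fell in Quaking KO and WT. Hk2 encodes a hexokinase, which phosphorylates glucose and so traps it in the cell. At day 10, Hk2 had 141, 151 and 201 CPM in Quaking KO, against 376, 312 and 336 CPM in Sam68 KO and 322, 333 and 334 CPM in WT. At day 0, Hk2 had 709, 652 and 736 CPM in Quaking KO, 800.2, 853 and 880.2 CPM in Sam68 KO and 757, 747 and 793 CPM in WT. In each line every day 10 library was below every day 0 library, and at day 10 the Quaking KO libraries lay below all others. The log2 fold change at day 10 over day 0 was -2.08 in Quaking KO (edgeR adjusted p = 1.13e-12), -1.30 in Sam68 KO (2.86e-09) and -1.22 in WT (1.03e-08). The fall was larger in Quaking KO than in WT, with a difference of -0.87 (95% interval -1.24 to -0.50, edgeR's interaction test, adjusted p = 0.0023).

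Pfkp encodes the platelet-type phosphofructokinase, an isoform of the enzyme that catalyses the committed step. It had the largest fold changes with time among the 10 genes in every line. At day 10, Pfkp had 4.64, 17.3 and 23.5 CPM in Quaking KO, against 40.3, 41.1 and 46.3 CPM in Sam68 KO and 32.5, 27.7 and 54.0 CPM in WT. The lowest of these values was 5 counts, in Quaking KO replicate 1, and WT replicate 3 had 23 counts. At day 0 all 9 libraries were between 163 and 244 CPM. The groups of the 2 days did not overlap in any line, and the Quaking KO libraries at day 10 were below all others of that day. The log2 fold change at day 10 over day 0 was -3.35 ± 0.28 SE in Quaking KO, -2.39 ± 0.26 in Sam68 KO and -2.37 ± 0.27 in WT, with edgeR adjusted p-values of 5.34e-09, 1.86e-07 and 3.65e-07 in that order. The difference between the Quaking KO and WT day effects, -0.98 (95% interval -1.76 to -0.20), did not pass edgeR's threshold (adjusted p = 0.118), though it did with DESeq2 (adjusted p = 0.0322).

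Aldoa encodes aldolase A, which splits fructose bisphosphate into triose phosphates. At day 10, Aldoa had 786, 727 and 688 CPM in Quaking KO, against 1671, 1357 and 1220.5 CPM in Sam68 KO and 1213, 1142 and 712 CPM in WT. At day 0 the 9 libraries were between 1243 and 1471 CPM. WT replicate 3 at day 10, a library in which a few features held over 40% of counts, fell within the Quaking KO range, and the other WT libraries lay above it. Over time Aldoa fell in Quaking KO (log2 -0.91, edgeR adjusted p = 9.63e-06) and in WT (-0.48, adjusted p = 0.0069). The WT value was -0.41 with only the compared groups in the fit, where it did not pass (edgeR adjusted p = 0.0647), and -0.29 without the 3 libraries in which a few features held over 40% of counts (adjusted p = 0.0217). In Sam68 KO the value was 0.09 (edgeR adjusted p = 0.609), and 0.35 without the same 3 libraries (adjusted p = 0.0327), which leaves replicate 1 alone at day 10.

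Among the enzymes of the lower part, Gapdh, Eno1 and Pkm fell in every line, while Ldha passed the threshold in Quaking KO and not in the other lines. Gapdh encodes glyceraldehyde phosphate dehydrogenase, the step that makes NADH. At day 10, Gapdh had 49.2, 98.4 and 85.5 CPM in Quaking KO, against 208, 159 and 206 CPM in Sam68 KO and 199, 178 and 162 CPM in WT. At day 0, Gapdh had 329, 349.7 and 265 CPM in Quaking KO, 341, 428 and 441 CPM in Sam68 KO and 418, 353 and 369 CPM in WT. In each line the day 10 libraries were all below the day 0 libraries, and Quaking KO was lowest at day 10. The log2 fold change with time was -1.99 in Quaking KO (edgeR adjusted p = 2.48e-09), -1.08 in Sam68 KO (1.54e-05) and -1.07 in WT (1.9e-05). Gapdh is often used to scale other measurements, and here its level differed by day in every line and, at day 10, between Quaking KO and WT.

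Eno1 encodes alpha-enolase, which forms phosphoenolpyruvate. At day 10, Eno1 had 43.6, 67.4 and 55.8 CPM in Quaking KO, against 104, 82.2 and 70.4 CPM in Sam68 KO and 63.0, 63.4 and 32.9 CPM in WT. The Quaking KO and WT libraries overlapped, and the Sam68 KO libraries lay above both. At day 0 the 9 libraries were between 143 and 209 CPM, above every day 10 library. Eno1 fell with time by log2 -1.72 in Quaking KO, -0.84 in Sam68 KO and -1.75 in WT (edgeR adjusted p = 1.48e-08, 2.21e-04 and 1.12e-08 in that order). Without the 3 libraries in which a few features held over 40% of counts the Sam68 KO value was -0.56 (edgeR adjusted p = 0.0163), with replicate 1 alone at day 10. The Sam68 KO day effect minus that of WT was 0.91 (95% interval 0.39 to 1.43), which did not pass edgeR's interaction test (adjusted p = 0.149).

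Pkm encodes the muscle-type pyruvate kinase, the last enzyme on the way to pyruvate, whose spliced isoforms a count per gene does not separate. At day 10, Pkm had 432, 511 and 494 CPM in Quaking KO, against 838, 649.8 and 739 CPM in Sam68 KO and 737, 619 and 597 CPM in WT. At day 0, Pkm had 1034, 854 and 975 CPM in Quaking KO, 1072, 1256 and 1311 CPM in Sam68 KO and 912, 1015 and 1071 CPM in WT. The 2 days did not overlap in any line, and at day 10 the Quaking KO libraries lay below the others. Pkm fell with time by log2 -0.99 in Quaking KO, -0.71 in Sam68 KO and -0.62 in WT (edgeR adjusted p = 3.95e-07, 4.07e-05 and 2.1e-04 in that order).

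Ldha encodes the lactate dehydrogenase A subunit, which turns pyruvate into lactate and renews NAD. At day 10, Ldha had 286, 264 and 278 CPM in Quaking KO, against 586, 524 and 536 CPM in Sam68 KO and 461, 415 and 437 CPM in WT. At day 0, Ldha had 501, 396 and 471 CPM in Quaking KO, 492, 603 and 741 CPM in Sam68 KO and 475, 458 and 504 CPM in WT. The Quaking KO day 10 libraries were the lowest 3 of the 18, and the days overlapped in the other lines. Ldha fell in Quaking KO (log2 -0.73, edgeR adjusted p = 4.71e-05), while the values in Sam68 KO (-0.16, adjusted p = 0.301) and WT (-0.13, adjusted p = 0.405) did not pass the threshold.

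Pgk1 encodes phosphoglycerate kinase, the enzyme of the first ATP-forming step, and was counted at between 0 and 32 reads per library. At day 10 it had 0, 3 and 4 counts in Quaking KO, against 31, 1 and 4 counts in Sam68 KO and 17, 7 and 0 counts in WT. A count of 0 allows up to 2.78 CPM in Quaking KO replicate 1 and 7.05 CPM in WT replicate 3, by a floor of 3 counts that covers counting error only. Pgk1 reached edgeR's cutoff on low values, 2.39 CPM, in 7 of 18 libraries and in every library of WT day 0 only, while the other 9 genes reached it in all 18. No comparison of Pgk1 passed the threshold in edgeR's test, and the 95% interval for Quaking KO at day 10 over day 0 was -2.78 to 0.46. Among the alternatives it passed in 2 of 12 for Sam68 KO over Quaking KO at day 10, at 2.25 without Sam68 KO replicate 2 (edgeR adjusted p = 0.0315) and at 2.27 without the 3 libraries in which a few features held over 40% of counts (adjusted p = 0.0414), where the Sam68 KO arm is replicate 1 with its 31 counts.

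**Figure D2:**
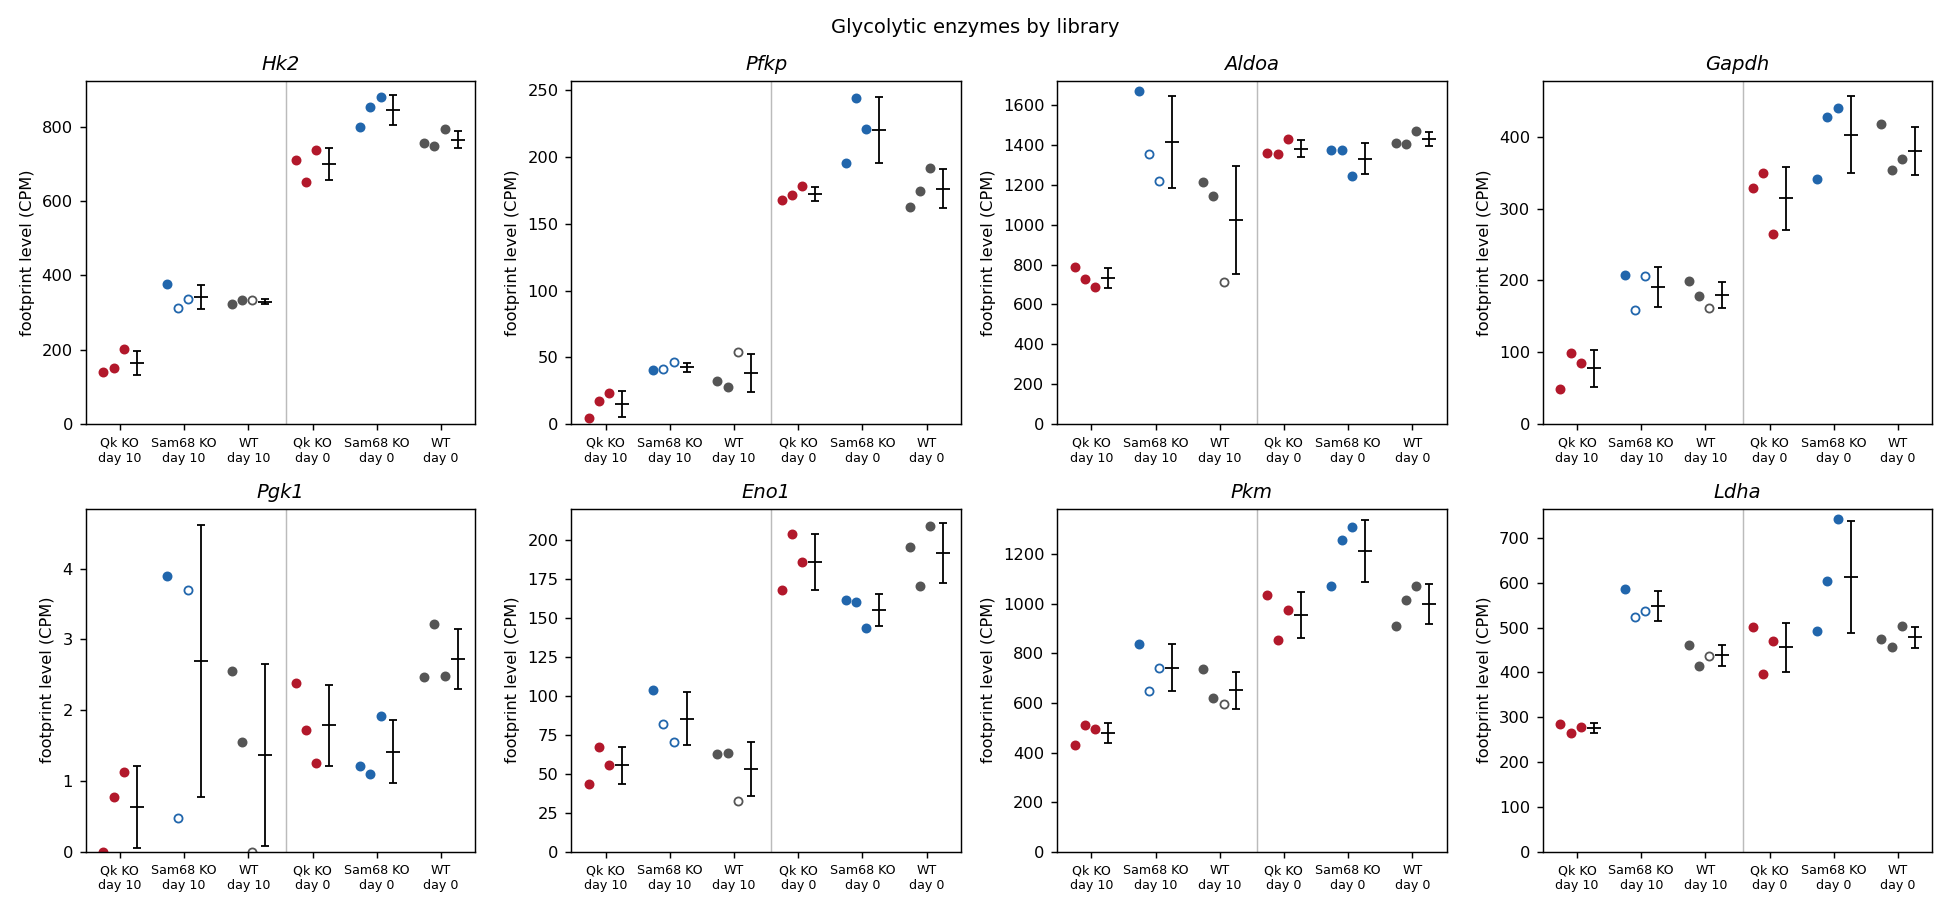
Footprint level in CPM (linear axes starting at 0, 1 panel per gene with its own scale) of the 8 enzymes in each library, by line at day 10 and then at day 0, with open points and black bars (mean ± SD, n = 3) as for the transporters. Hk2, Pfkp, Gapdh, Eno1 and Pkm are lower at day 10 in every line, and the Pgk1 panel spans only 0 to 3.90 CPM.

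Counted over the 10 genes, 9 were called lower and none higher at day 10 than at day 0 in Quaking KO (edgeR), where 29.4% of all genes tested were called lower and 34.7% higher. In Sam68 KO 5 were lower, against 30.5% of all genes, and 1 was higher, against 34.9%. In WT 6 were lower, against 30.1%, and 1 was higher, against 34.9%. The gene that was higher in Sam68 KO and WT was Slc2a3. The median log2 fold change over the 10 genes was -1.13 in Quaking KO, -0.43 in Sam68 KO and -0.56 in WT, while over all genes it was 0.11, 0.11 and 0.10 in the same order. Hk2, Pfkp, Gapdh, Eno1 and Pkm were lower in all 3 lines, 5 of the 10, where 22.5% of all genes were lower in all 3. The 3 libraries in which a few features held over 40% of counts were also left out, with Sam68 KO replicate 1 alone at day 10. The median over the 10 genes was then -1.11 in Quaking KO, -0.28 in Sam68 KO and -0.48 in WT. Over all genes it was 0.18, 0.03 and 0.06 in the same order. A fit with pool as a term, which gives 1 day effect for all lines, called 4 of the 10. Of all 13701 genes tested it called 2654 higher and 2916 lower. Of the 4, Slc2a1 (log2 1.47) and Slc2a3 (3.27) were higher and Pfkp (-1.41) and Eno1 (-0.87) lower. That fit has as many terms as groups, so it cannot test whether the lines share 1 day effect. Its day effect is the WT change plus the Sam68 KO change minus the Quaking KO change. A fall in Quaking KO therefore raises it, and it gives no separate estimate for Quaking KO.

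**Figure D3:**
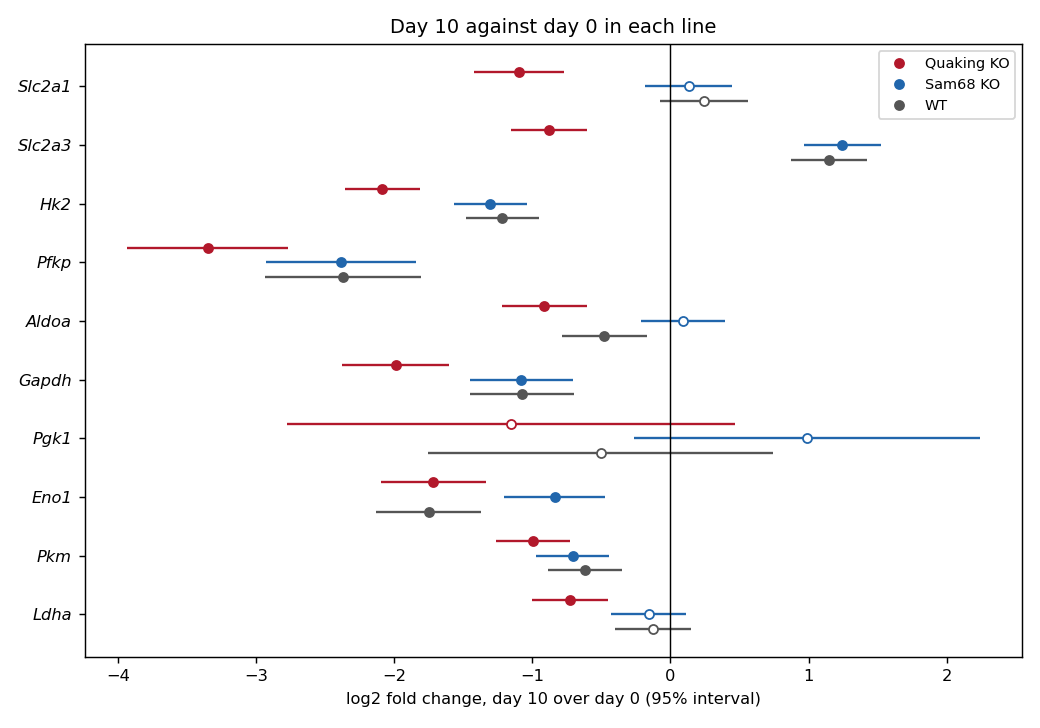
Log2 fold change of each gene at day 10 over day 0 in Quaking KO, Sam68 KO and WT, from top to bottom within a gene. Lines are 95% intervals, filled points passed an adjusted p of 0.05 in edgeR's test and open points did not. For Slc2a3 the Quaking KO point (-0.88) lies on the other side of 0 from Sam68 KO (1.25) and WT (1.15).

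The change with time differed between Quaking KO and WT for 5 of the 10 genes, all more negative in Quaking KO, where 3.76% of all genes tested were called more negative and 5.12% more positive by edgeR's interaction test. These were Slc2a1, Slc2a3, Hk2, Gapdh (-0.92, 95% interval -1.45 to -0.39, adjusted p = 0.0245) and Ldha (-0.60, interval -0.99 to -0.21, adjusted p = 0.0481). The calls of Slc2a1, Slc2a3 and Hk2 held in 20 of 20 alternative settings, that of Gapdh in 12 and that of Ldha in 7. The count was 3 without Quaking KO day 0 replicate 1, Quaking KO day 10 replicate 1, WT day 0 replicate 2 or 3, or WT day 10 replicate 1 or 2, and 6 without WT day 10 replicate 3. It was 5 without the 3 libraries in which a few features held over 40% of counts, where Aldoa passed (-0.60, edgeR adjusted p = 0.00704) and Ldha did not (-0.57, adjusted p = 0.064). The interaction contrasts pool 3 with pool 2, so line and pool cannot be told apart in it. For Sam68 KO against WT, no gene of the 10 passed edgeR's interaction test, where 0.431% of all genes did; 2 had an unadjusted p below 0.05, DESeq2 called 0, and edgeR called 0 without the 3 libraries.

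At day 10, 8 of the 10 genes were called lower in Quaking KO than in WT by edgeR, against 12.8% of all genes tested, and none higher, against 11.1%. The median log2 difference was -1.005 over the 10 and -0.03 over all genes. The transporters had the largest called differences, Slc2a3 at -2.42 ± 0.14 SE (adjusted p = 2.31e-11), to 0.186 of the WT level, and Slc2a1 at -1.59 ± 0.16 (adjusted p = 5.75e-08), to 0.333 of it. Of the enzymes, Gapdh was at -1.19 (edgeR adjusted p = 3.94e-05), Pfkp at -1.01 (0.0156), Hk2 at -0.999 (2.44e-06) and Ldha at -0.67 (0.00062). Aldoa, at -0.48 (edgeR adjusted p = 0.0188), and Pkm, at -0.44 (0.014), were also called, but Aldoa was past the threshold in only 7 of 14 alternative settings; without a filter on low counts neither passed (adjusted p = 0.129 and 0.233). The 2 that were not called were Pgk1 (-1.24, edgeR adjusted p = 0.26) and Eno1 (-0.01, 95% interval -0.40 to 0.38, adjusted p = 0.982). The libraries of the groups did not overlap for 7 of the 10 genes, against 31.2% of all genes. The count was 8 without the 3 libraries in which a few features held over 40% of counts, 6 without WT replicate 1, and 5 when the fit held only these 2 groups, where Pfkp, Aldoa and Pkm were lost.

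Sam68 KO against Quaking KO at day 10 is the comparison of embryoid bodies that lies within a single pool, and it shares the Quaking KO libraries with the comparison above. In it, 9 of the 10 genes were called higher in Sam68 KO (edgeR), against 13.0% of all genes, and none lower, against 10.6%. Slc2a3 was higher by 2.49 on the log2 scale (5.63-fold, adjusted p = 6.76e-12) and Slc2a1 by 1.68 (3.21-fold, adjusted p = 2.25e-08). Among the enzymes the values ran between 0.62 for Eno1 (edgeR adjusted p = 0.0158) and 1.32 for Pfkp (0.00188), and Pgk1, at 1.79, did not pass (0.0828). The median was 1.16 over the 10 genes and 0.03 over all genes. The count was 10 without the 3 libraries in which a few features held over 40% of counts, where Sam68 KO is replicate 1 alone and the added gene is Pgk1. It was 7 without a filter on low counts, where Eno1 (adjusted p = 0.0868) and Pkm (adjusted p = 0.056) did not pass edgeR's threshold, and Eno1 passed in 10 of 14 alternative settings. Under RLE in place of TMM scaling 9 were also called higher, while the split over all genes changed, with 1505 higher and 1875 lower under RLE and 1787 higher and 1455 lower under TMM.

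**Figure D4:**
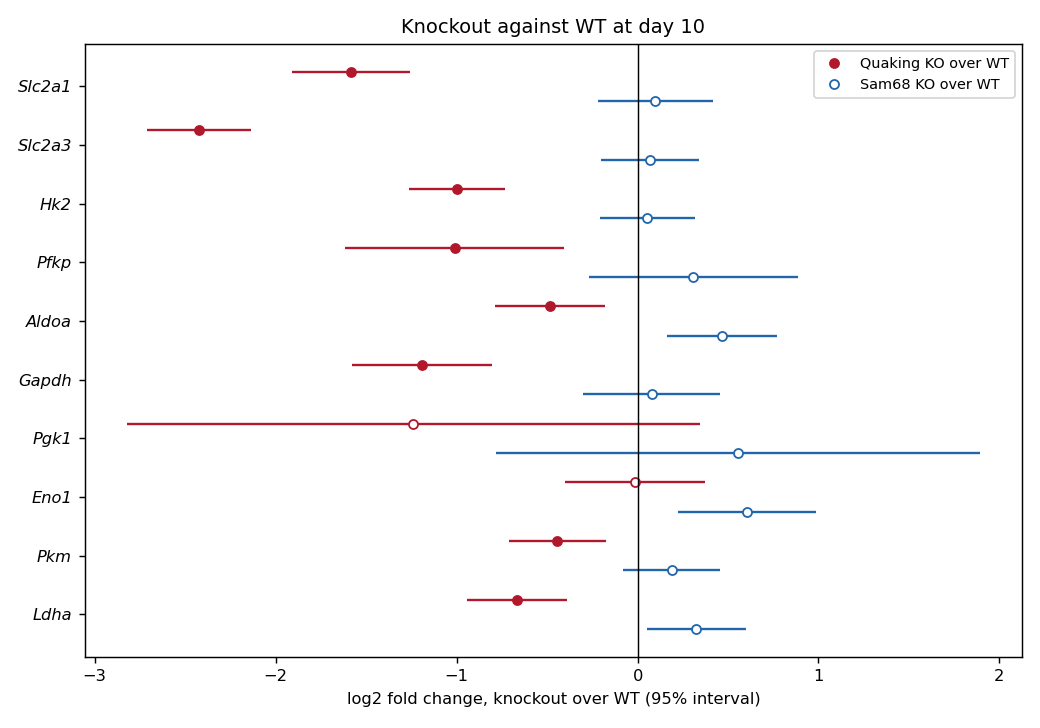
Log2 fold change at day 10 of each gene in Quaking KO over WT and in Sam68 KO over WT, from top to bottom within a gene, with 95% intervals; filled points passed an adjusted p of 0.05 in edgeR's test and open points did not. Both comparisons use the same WT libraries. Quaking KO points reach -2.42 (Slc2a3) and all Sam68 KO points are open.

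Sam68 KO did not differ from WT in any of the 10 genes by the threshold at day 10, where edgeR called 0.175% of all genes. An unadjusted p below 0.05 was found for 3 (Aldoa 0.47, Eno1 0.61 and Ldha 0.33 on the log2 scale, all higher in Sam68 KO), and DESeq2 called 0. For these 3 genes the groups did not overlap, against 11.4% of all genes. For Slc2a3 the difference was 0.07 with a 95% interval of -0.20 to 0.34, and for Hk2 it was 0.05 with an interval of -0.21 to 0.32, so differences within these bounds cannot be told from 0 here. None of the 10 was called without the 3 libraries in which a few features held over 40% of counts, where Sam68 KO is replicate 1 alone.

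In stem cells at day 0 neither knockout was called different from WT in any of the 10 genes. For Quaking KO, edgeR called 0.365% of all genes, 1 of the 10 had an unadjusted p below 0.05 and DESeq2 called 0. That gene was Slc2a3, at log2 -0.40 (95% interval -0.67 to -0.12, edgeR adjusted p = 0.348). Quaking KO and WT libraries did not overlap for 5 of the 10 genes, and Sam68 KO and WT libraries for 7. No share over all genes is set beside these counts. The 5 were Slc2a1, Slc2a3, Hk2, Gapdh and Pgk1, all lower in Quaking KO. Pgk1 reached edgeR's cutoff on low values in every library of WT day 0 only. Slc2a3 was among the 5, with all Quaking KO libraries below all WT libraries. It was called when the 3 day 10 libraries in which a few features held over 40% of counts were left out of the fit, although no day 0 library changed (log2 -0.44, edgeR adjusted p = 0.0469). For Sam68 KO, edgeR called 1.26% of all genes, 2 of the 10 had an unadjusted p below 0.05 (Ldha 0.35 and Pkm 0.28, higher in Sam68 KO), DESeq2 called 0, and edgeR called 0 without the 3 libraries. The median over the 10 genes was -0.10 for Quaking KO and 0.11 for Sam68 KO, against -0.09 and 0.02 over all genes.

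The sum of the 10 genes can be read with the transporters and enzymes apart. At day 10 the 2 transporters summed to 1105 ± 101 CPM in Quaking KO (SD, n = 3), 5103 ± 1051 CPM in Sam68 KO and 4837 ± 633 CPM in WT. At day 0 they summed to 2172 ± 56.3 CPM in Quaking KO, 2882 ± 198 CPM in Sam68 KO and 2733 ± 116 CPM in WT. The 8 enzymes summed at day 10 to 1802 ± 52.3 CPM in Quaking KO, 3370.2 ± 396 CPM in Sam68 KO and 2713 ± 356 CPM in WT. At day 0 the enzymes summed to 4165 ± 160.4 CPM in Quaking KO, 4781 ± 297 CPM in Sam68 KO and 4424 ± 162 CPM in WT. On these TMM sizes the 2 sums moved in opposite directions with time in Sam68 KO and WT, and in Quaking KO both were lower at day 10. As a share of all counts, the transporters held 0.213% to 0.635% in Sam68 KO and 0.149% to 0.546% in WT at day 10. At day 0 they held 0.335% to 0.376% in Sam68 KO and 0.318% to 0.361% in WT. The rise of the transporter sum in these lines therefore depends on the scaling. Together the 10 genes were at 2907 ± 152 CPM at day 10 and 6337 ± 149 CPM at day 0 in Quaking KO, and at 7549.7 ± 987 CPM and 7157 ± 217 CPM in WT. These sums were not tested.

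On the scale of all counts, where a few very large features lower the share of every other gene, the 10 genes held 0.298% to 0.352% in Quaking KO at day 10. The WT day 10 libraries held 0.856%, 0.801% and, in replicate 3, 0.234% (exact 95% binomial interval 0.225% to 0.242%). The Sam68 KO day 10 libraries held 1.02% in replicate 1 and 0.412% and 0.369% in the 2 in which a few features held over 40% of counts. The ratio of Quaking KO to WT at day 10 was 0.385 on TMM sizes and 0.524 as a share of all counts. WT at day 10 over day 0 was 1.05 on TMM sizes and 0.714 as a share, and Sam68 KO was 1.11 and 0.628. The direction of the summed change in WT and Sam68 KO therefore depends on the scaling.

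The makeup of the 10 genes' counts does not depend on how libraries are scaled. Slc2a3 made up 21.5% to 22.5% of them in Quaking KO at day 10, against 41.8% to 43.5% in Sam68 KO and 44.4% to 47.4% in WT at day 10. At day 0 its share was 17.2% to 21.2% in Quaking KO, 17.3% to 22.8% in Sam68 KO and 20.9% to 23.2% in WT. The Quaking KO day 10 libraries were thus within the range of the 9 day 0 libraries, and the day 10 libraries of the other lines were above it. The count ratio of Slc2a3 to Slc2a1, 2 genes of different length, was 1.31 to 1.46 in Quaking KO, 2.32 to 2.59 in Sam68 KO and 2.29 to 2.87 in WT at day 10, and 0.993 to 1.49 over the 9 day 0 libraries. The 3 libraries in which a few features held over 40% of counts lay within or next to their groups in both measures, with a ratio of 2.87 in WT replicate 3 and of 2.46 and 2.59 in Sam68 KO. Shares move against each other, so a lower share of one gene raises the others.

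**Figure D5:**
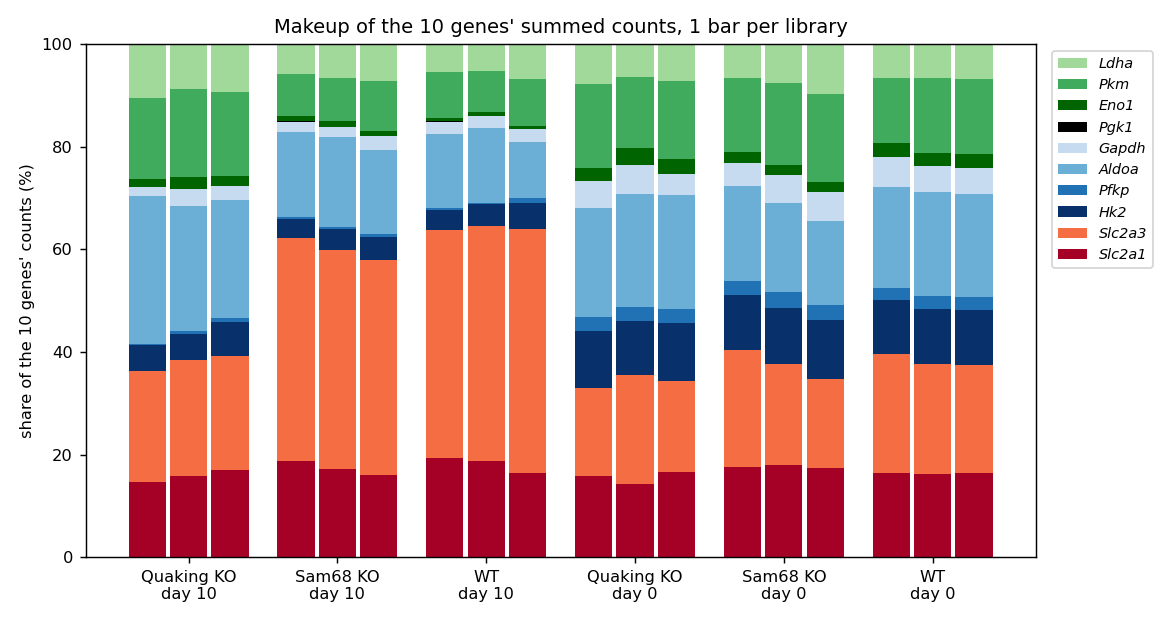
Share in percent (linear axis starting at 0) of each of the 10 genes in their summed counts, 1 stacked bar per library, with replicates 1 to 3 side by side in each group, day 10 first. Slc2a3 and Slc2a1 form the lowest segments; Slc2a3 takes 41.8% to 47.4% in Sam68 KO and WT at day 10 and 21.5% to 22.5% in Quaking KO at day 10.

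Across the 18 libraries, the 5 genes that fell in every line had similar profiles. They were picked for that shared fall in these same libraries, so the likeness follows in part from the choice. Pearson's r of log2(CPM + 1) for their 10 pairs was between 0.830 and 0.973, the highest for Hk2 with Pfkp. Slc2a3 was correlated with the other genes apart from Pgk1 at -0.130 (Eno1) to 0.840 (Slc2a1). The libraries share line and day, and after the group means were removed the same 10 pairs gave between 0.0068 and 0.617. These correlations describe 18 libraries in 6 groups that were not tested as independent samples.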

How the data were processed

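Each of the 18 ribosome profiling libraries had a deposited file of raw whole-number counts, 1 row for each of 51826 Ensembl gene IDs with versions. Cycloheximide was given before harvest, per the labels' protocols, and lysates were digested with RNase I, ribosomes were pelleted through sucrose and footprint-sized RNA was cut from a gel. The submitters' processing notes name STAR 2.5.3a, Bowtie2 and bcl2fastq 2.17.1.14, and the builds mm10 and GRCm38. They do not give the counting program, annotation, use of strand or treatment of reads with several matches, so the counts of overlapping genes and of antisense pairs are uncertain.

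Groups and replicate numbers came from the titles and pools from the descriptions. All 18 libraries entered 1 fit of 6 group means on the deposited counts with edgeR (version 4.0.16 in R 4.3.3, robust quasi-likelihood, two-sided), after TMM scaling and edgeR's filter on low counts by group (minimum count 10). The filter kept 13701 genes, which held 99.4% or more of any library's counts. There were 10 comparisons, 2 of them interactions, with Benjamini-Hochberg adjustment over all genes tested. The common biological coefficient of variation was 0.229. A floor of 3 counts was 0.233 to 7.05 CPM. Floors and binomial intervals cover counting error only, because the reads carry no molecular identifiers. No replicates were as close as sampling noise (the lowest chi-square per degree of freedom was 4.80), and every library was counted as its own sample. All 10 genes were named in every comparison. The genes, lists and tests were chosen with earlier results of these data known. Lists of other glycolytic genes, regulators, hypoxia targets and cell types could not be matched to IDs (0 of 49997 RefSeq genes carry an Ensembl ID) and are not reported. Promoter sequences came from RefSeq, GRCm38.p6. The alternatives were no filter, RLE or upper quartile scaling, DESeq2 1.42.0, thinning, a replicate block, fitting the compared groups alone, pool as a term, and leaving out each library or the 3 libraries in which 10 features held over 40% of counts.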

Additional observations from a re-analysis of the deposited data

Results flagged for a closer look

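For 5 of the 10 genes the change between day 10 and day 0 differed between Quaking KO and WT by edgeR's interaction test with Benjamini-Hochberg adjustment, which is why they are listed here. On the log2 scale, Quaking KO minus WT, the difference was -2.03 for Slc2a3 (adjusted p = 1.84e-07), -1.34 for Slc2a1 (adjusted p = 0.000224) and -0.87 for Hk2 (adjusted p = 0.0023). It was -0.92 for Gapdh (edgeR adjusted p = 0.0245) and -0.60 for Ldha (edgeR adjusted p = 0.0481). Slc2a3 moved in opposite directions, falling in every Quaking KO library relative to day 0 and rising in every WT library. The contrast sets pool 3 against pool 2, so pool and line cannot be told apart. Within pool 3, Slc2a3 was lower in all 3 Quaking KO libraries than in all 3 Sam68 KO libraries at day 10.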

How the results depend on the processing

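Over all comparisons, 668 alternative values were computed for calls of single genes, of which 615 kept direction and call, 48 were no longer past the threshold and 5 were reversed; of 865 alternative values for uncalled genes, 851 stayed uncalled and 14 passed. The 5 reversals came from the additive fit with pool as a term, which gives 1 day effect for all lines. They were Aldoa 0.52 (Quaking KO and WT), and in Quaking KO Slc2a1 1.47, Slc2a3 3.27 and Ldha 0.44. The day effect of the additive fit is the WT change plus the Sam68 KO change minus the Quaking KO change. It gives no separate estimate for a line, so these reversals set unlike quantities against each other. That fit called 4 of the 10 genes, 2 of them higher, against 9 in Quaking KO, all lower, and 7 in WT, 6 lower and 1 higher. Of all 13701 genes tested it called 2654 higher and 2916 lower. Quaking KO against WT at day 10 called 5 with only the compared groups in the fit, against 8, and 6 to 8 when each library was left out. Quaking KO against WT at day 0 called 1 without the 3 libraries dominated by few features, against 0. The interaction of Quaking KO with day called 3 to 6 when libraries were left out, against 5, and Sam68 KO against Quaking KO at day 10 called 8 to 10, against 9, and 7 without a filter on low counts. The cause of the changes outside the additive fit was not tested. Leaving out single libraries left 9 calls in Quaking KO, 6 in Sam68 KO and 7 in WT between the days, and 0 in the other 4 comparisons. Most same-numbered replicates did not deviate together (correlations of -0.183 to 0.442, 4 of 24 pairs over 0.1). The highest were 0.442 and 0.267, for replicates 1 and 3 of Sam68 KO with WT at day 10. The main fit therefore did not pair libraries by number, though low correlations cannot show that none were prepared together. With the replicate block the counts were 9, 6 and 7 between the days in Quaking KO, Sam68 KO and WT. They were 8 for Quaking KO against WT and 9 for Sam68 KO against Quaking KO, both at day 10. The Quaking KO interaction had 5 and the remaining comparisons 0, all as without the block. Levels per coding length were not run because no lengths were given. Pgk1 had few counts in shallow and deep libraries alike, at most 32. That maximum came from the deepest library (10646768 counts), WT replicate 3 at day 0, and equals 2.48 CPM. The next lowest of the 10 genes there was Pfkp, at 2466 counts. Why Pgk1 was counted so low was not tested.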
